A study of Homo sapiens with 6 samples.

Results

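Distal accessible regions of EndoC-βH3, a beta cell line of human origin, that lay in dense runs were followed into senescence. Accessibility was measured by ATAC-seq, in which the Tn5 transposase cuts open chromatin, in 3 libraries of non-senescent and 3 libraries of senescent cells. EndoC-βH3 was derived from human fetal pancreas and carries hTERT and an SV40 large T antigen, both of which a tamoxifen-activated Cre (CreER) can excise. The senescent cells had been treated with 4-hydroxytamoxifen for 3 weeks, and the non-senescent cells had not. All 6 libraries thus come from 1 line. Loss of hTERT, loss of the large T antigen, exposure to 4-hydroxytamoxifen and senescence cannot be told apart. Nothing in the sources used here says that the libraries of a group came from separate cultures, so the p-values measure the spread between these libraries, which may be technical.

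Of 108542 regions in the authors' deposited table, 105696 were autosomal, 19445 of these overlapped 2 kb either side of a protein-coding start site and 9954 of the others had a mean signal under 20 normalised reads. The remaining 76297 distal regions were joined across short gaps (up to 12481 bp, the longest that passed the limit of the rule), and groups of 8 or more were kept. This gave 4034 regions in 355 runs, and the other 72263 distal regions served for comparison. The rule used position and mean signal and did not use the change between the groups. The deposited table holds 1 mean over all libraries, 1 log2 fold change with its standard error (SE) and 1 adjusted p for each region, so values for single libraries cannot be given. The fold change was read as senescent over non-senescent, because the study labels its changes that way and the promoter of the proliferation gene MKI67 was lower (log2 fold change -0.53, SE 0.097, adjusted p 4.6e-07), although the table does not name the numerator. A region was called higher or lower with an adjusted p under 0.05 and a change over 1.5-fold.

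The regulatory elements of a gene often lie in groups around it, and long groups of strong elements are common near the genes that set the identity of a cell type. In islet cells such genes include the transcription factors PDX1, NKX6-1, NKX2-2 and FOXA2. A second source of dense regions is repeated DNA. Alpha satellite forms the core of human centromeres, ATTCC repeats form satellite blocks beside several of them, and the genes for ribosomal RNA, U2 small nuclear RNA and some transfer RNAs stand in tandem arrays. A read from such copies can be aligned to any of them, so a region there stands for the family rather than for its own position.

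The runs were therefore sorted by sequence before their changes were described. A run was called ATTCC satellite where ATTCC or its complement took 10% or more of 3000 bases (median over its regions), alpha satellite where matches at the period of its repeat unit were in excess by 0.1 or more, and repeated where fewer than 50% of the 31-base words in the central 300 bases of its regions occurred once in hg38. Repeated runs with 2 or more RefSeq genes for small structural RNAs were called small RNA arrays. Of the 355 runs, 290 (2950 regions) were single-copy, 33 (657 regions) were alpha satellite, 7 (88 regions) were ATTCC satellite, 8 (154 regions) were small RNA arrays and 17 (185 regions) were other repeated runs. These classes were drawn up after the values had been seen.

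The sequences below show what the repeated classes are made of, all from the plus strand of hg38. The first is the stretch richest in the repeat within the strongest region of the strongest ATTCC run (chr1:143223463-143223612), with GGAAT, the complement of ATTCC, in capitals. The next pair are neighbouring units of alpha satellite from the run with the most regions (chr19:24925512-24925682 and chr19:24925683-24925853), chosen as the most alike in its strongest region, with the bases that both units share in capitals (70.8%). The last holds the U2 gene LOC124904135 as RefSeq (GRCh38.p14) places it, in capitals, in the strongest region of the chromosome 17 array (chr17:43239887-43240146).
ATTCC satellite: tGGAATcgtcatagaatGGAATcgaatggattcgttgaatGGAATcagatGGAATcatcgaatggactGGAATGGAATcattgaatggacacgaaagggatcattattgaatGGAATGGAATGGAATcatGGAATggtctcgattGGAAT
Alpha satellite, first unit: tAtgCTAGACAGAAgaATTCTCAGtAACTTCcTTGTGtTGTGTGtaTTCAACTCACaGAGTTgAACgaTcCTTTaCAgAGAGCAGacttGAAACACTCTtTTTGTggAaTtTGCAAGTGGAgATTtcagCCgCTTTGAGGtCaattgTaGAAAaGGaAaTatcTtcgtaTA
Alpha satellite, next unit: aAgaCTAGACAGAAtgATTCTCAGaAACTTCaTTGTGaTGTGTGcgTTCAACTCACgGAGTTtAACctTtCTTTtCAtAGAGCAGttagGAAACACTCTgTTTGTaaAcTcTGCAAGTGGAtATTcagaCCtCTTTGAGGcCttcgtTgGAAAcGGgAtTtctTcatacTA
U2 array: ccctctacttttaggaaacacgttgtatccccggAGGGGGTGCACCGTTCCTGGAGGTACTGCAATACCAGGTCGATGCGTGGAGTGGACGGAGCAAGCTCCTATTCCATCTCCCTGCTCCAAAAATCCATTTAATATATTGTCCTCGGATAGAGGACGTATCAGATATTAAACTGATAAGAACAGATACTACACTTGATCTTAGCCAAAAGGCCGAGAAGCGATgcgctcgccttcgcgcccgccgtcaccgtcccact

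Among single-copy runs, 3 regions are shown as examples, each as the 300 bases around its middle. The strongest region of the LMO2 run (chr11:33934513-33934812) was higher in senescent cells, and the letters TGCTGAC of the MAF motif, here on the minus strand, are in capitals. The regions in an intron of GSE1 (chr16:85483970-85484269) and in an intron of RALGAPA2 near INSM1 (chr20:20449007-20449306) were lower. CAGATGG, an E-box bound by bHLH factors such as NEUROD1, is in capitals in both, and TGTTTAC, bound by FOXA factors, in the RALGAPA2 region, on either strand. The GSE1 and RALGAPA2 regions were each picked as the strongest lower region of the run to hold CAGATGG. They are thus no separate support for the motif shares below.
LMO2 run: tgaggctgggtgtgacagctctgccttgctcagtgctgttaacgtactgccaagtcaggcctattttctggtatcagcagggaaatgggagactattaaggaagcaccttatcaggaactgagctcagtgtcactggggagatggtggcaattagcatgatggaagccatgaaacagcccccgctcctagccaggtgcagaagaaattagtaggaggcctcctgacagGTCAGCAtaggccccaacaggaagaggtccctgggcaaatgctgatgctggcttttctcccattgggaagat
GSE1 intron: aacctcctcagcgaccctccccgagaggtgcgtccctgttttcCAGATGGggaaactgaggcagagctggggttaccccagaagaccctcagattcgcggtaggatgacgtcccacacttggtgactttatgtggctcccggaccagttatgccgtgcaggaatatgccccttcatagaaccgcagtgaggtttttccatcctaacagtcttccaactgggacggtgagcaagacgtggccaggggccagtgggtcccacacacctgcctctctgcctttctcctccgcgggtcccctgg
RALGAPA2 intron: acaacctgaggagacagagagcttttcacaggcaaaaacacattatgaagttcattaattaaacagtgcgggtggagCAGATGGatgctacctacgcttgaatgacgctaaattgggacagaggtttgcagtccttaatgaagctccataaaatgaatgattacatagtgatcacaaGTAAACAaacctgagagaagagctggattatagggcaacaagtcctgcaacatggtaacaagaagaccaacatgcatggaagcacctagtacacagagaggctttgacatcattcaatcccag

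Over all 4034 regions in dense runs, 578 (14.3%) were higher and 449 (11.1%) were lower in senescent cells. The background was 15.4% higher and 10.3% lower over all regions, and 18.7% higher and 11.6% lower over the distal regions of the same signal limit. The order of higher and lower regions turned when a trend on GC content was taken out (467 and 499), without the fold limit (835 and 919) and at a mean signal of 50 or more (201 and 214). In 66 of the 578 higher and 18 of the 449 lower regions, the level in the lower group, worked out from the mean signal and the fold change, was under the limit of 20, so these had met it only through the group where they were high. The median log2 fold change was 0.06 in the runs and 0.05 in the other distal regions. These near-equal totals hid opposite behaviour of the classes. Of 88 ATTCC satellite regions, 84 were higher and none was lower. Of 154 regions in small RNA arrays, none was higher and 41 were lower. Alpha satellite held 58 higher and 1 lower of 657 regions. The single-copy runs held 415 higher (14.1%) and 392 lower (13.3%), and the other repeated runs 21 and 15 of 185 regions. The differences between classes are descriptions, since the classes were not tested against each other.

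**Figure D1:**
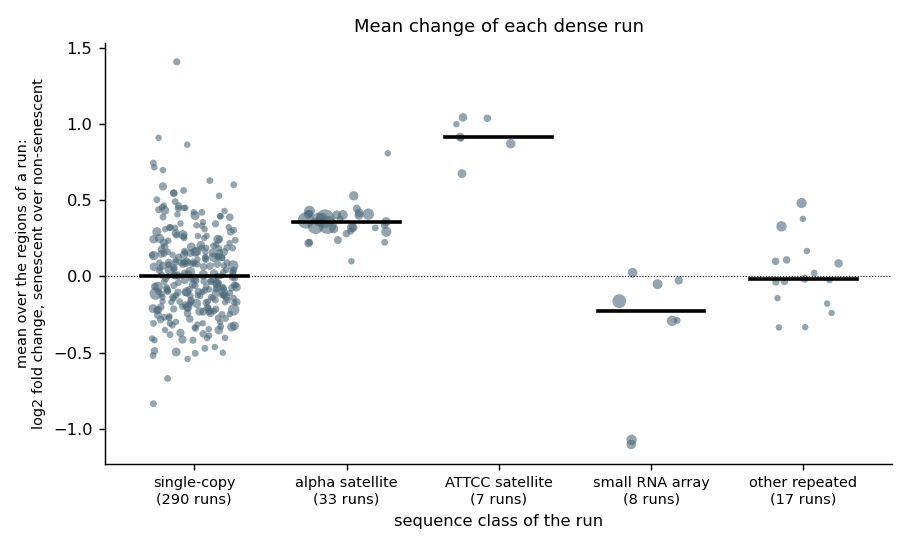
Mean log2 fold change of each of the 355 dense runs (vertical axis, senescent over non-senescent) by sequence class (horizontal axis). Each point is a run, its area grows with the number of regions, and the bar is the median of the class. The 7 ATTCC satellite runs sit between 0.67 and 1.04, while 2 small RNA arrays sit near -1.1 and the single-copy runs spread from -0.83 to 1.41.

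The ATTCC satellite runs were higher as whole blocks. On chromosome 1 the run at 143184646 to 143275911 was higher in 8 of 8 regions, and their log2 fold changes lay between 0.96 and 1.04 with SEs of 0.090 to 0.139. This run was among the strongest of all, with a summed mean signal of 70730 normalised reads and a range of 697 to 20080 per region. The same was seen at much weaker signal: 11 of 11 regions were higher on chromosome 2 (90380720 to 90402303, mean log2 fold change 1.04, median signal 127), and 14 of 14 on chromosome 20 (31157153 to 31244345, mean 1.04, median signal 130). On chromosome 10, 8 of 8 and 17 of 17 regions were higher in 2 runs with means of 0.91 and 0.87. On chromosome 17, 15 of 15 regions were higher in the run at 21852182 (mean 0.91), and 11 of 15 in the run at 26782789 (mean 0.67), where the 4 others had positive values too. Outside dense runs, 91 of the 103 distal regions with 10% or more ATTCC repeat were higher and none was lower. The regions of a run hold copies of 1 repeat family, and the share of words found once was 22.4% on chromosome 1 against 70.6% to 79.1% in the runs on chromosomes 10, 17 and 20.

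Alpha satellite moved in the same direction, but less and at the edge of detection. The 33 runs lay on chromosomes 1, 5, 10, 19 and 20, and the run with the most regions of all, 66 on chromosome 19 (24908933 to 25388989), was of this kind. Its regions had a median signal of 39.6, 61 of 66 had positive log2 fold changes, the mean was 0.38, and 4 were called higher. Over the class, 90.4% of 657 regions were positive with a median of 0.36, against a median SE of 0.32 for a single region, and 8.83% were called higher. The next largest runs gave like values, with means of 0.34 over 64 regions on chromosome 5, 0.37 over 52 on chromosome 1 and 0.33 over 49 on chromosome 19. The run on chromosome 20 (26440329 to 26509519) stood above the rest with 6 of 8 regions higher and a mean of 0.81. Outside dense runs, 728 alpha satellite regions had a median of 0.36, with 80.6% positive and 15.4% called higher. Other single-copy distal regions at a signal of 20 to 50 had a median of 0.26, with 62.9% positive and 26.5% called higher. Pearson's r across 624 pairs of neighbouring alpha satellite regions in runs was -0.02. The median standard deviation (SD) within a run was 0.26, below the median over runs of the mean SE (0.32). With no more spread than the SE, r cannot show whether neighbours vary together.

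Among the small RNA arrays, those for tRNA and for U2 lost accessibility, and those for ribosomal RNA changed little or in part. The array on chromosome 1 (161439998 to 161472239) holds 23 RefSeq tRNA genes for aspartate, glutamate, glycine and leucine, amino acids carried to the ribosome by these adaptors. In it 20 of 21 regions were lower, from -0.66 to -1.52 on the log2 scale, and the other stood at -0.54, with a mean over all 21 of -1.07 and SEs averaging 0.19. All 17 regions over a tRNA gene were lower (median -1.21), as were 3 of the 4 regions between genes (median -0.75). Outside dense runs, 13 of 86 distal regions over tRNA genes were lower and 1 was higher, with a median of -0.31, at a median signal of 587 against 136 in the array.

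U2 small nuclear RNA recognises the branch point in splicing. Its array on chromosome 17 (43233503 to 43339178, within the gene model CCDC200 for 12 of its 17 regions) holds 13 RefSeq U2-type genes. The 11 regions over these genes were all lower, and they were strong (signal 970 to 2907) and close to each other, from -1.35 to -1.62 with SEs of 0.049 to 0.074. The 6 regions off the genes ranged from -1.32 to 0.29 and 1 of them was lower. Past the last U2 gene, the 5 remaining regions had log2 fold changes of -0.34, -0.57, -1.32, 0.11 and 0.29. Other distal regions over small nuclear RNA genes were lower in 2 of 33 cases, with a median of -0.25.

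The highest summed signal of all 355 runs was in ribosomal DNA, in the larger of its runs. The 2 runs over 45S genes on chromosome 21 (8193794 to 8260927 with 21 regions, and 8376666 to 8471726 with 36) had summed signals of 68760 and 89160 normalised reads. Their means were -0.29 and -0.16, with mean SEs of 0.077 and 0.090, and 2 and 3 regions were called lower. In the larger run the 15 regions over the rRNA genes had a median of -0.39 and the 21 regions of the spacers 0.01. In the smaller run the 7 regions over the genes had a median of -0.42 and the 14 others -0.25. In the 5S array on chromosome 1 (228609036 to 228648409), none of the 17 regions over a 5S gene was called, with values from -0.13 to 0.32, while the 2 regions off the genes were lower (-0.81 and -1.15). Of the other arrays, the 2 over snRNA-class genes on chromosome 19 had no called region among 18 and 13, and that over snoRNA genes on chromosome 17 had 2 of 9 lower, neither over a gene. Across 146 pairs of neighbours pooled over the 8 arrays, Pearson's r was 0.80. This value holds differences between arrays (SD of their means 0.46, median SD within an array 0.25) as well as within them. Copies of a repeat also share sequence and so reads. Copy number of an array and accessibility per copy cannot be told apart in the table. The 17 other repeated runs had means from -0.33 to 0.48, and 7 of them held calls in both directions. Of these, 5 runs nearest to TPTE on chromosome 21 held no word found once in hg38 in the median region and had 11 to 14 regions each.

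**Figure D2:**
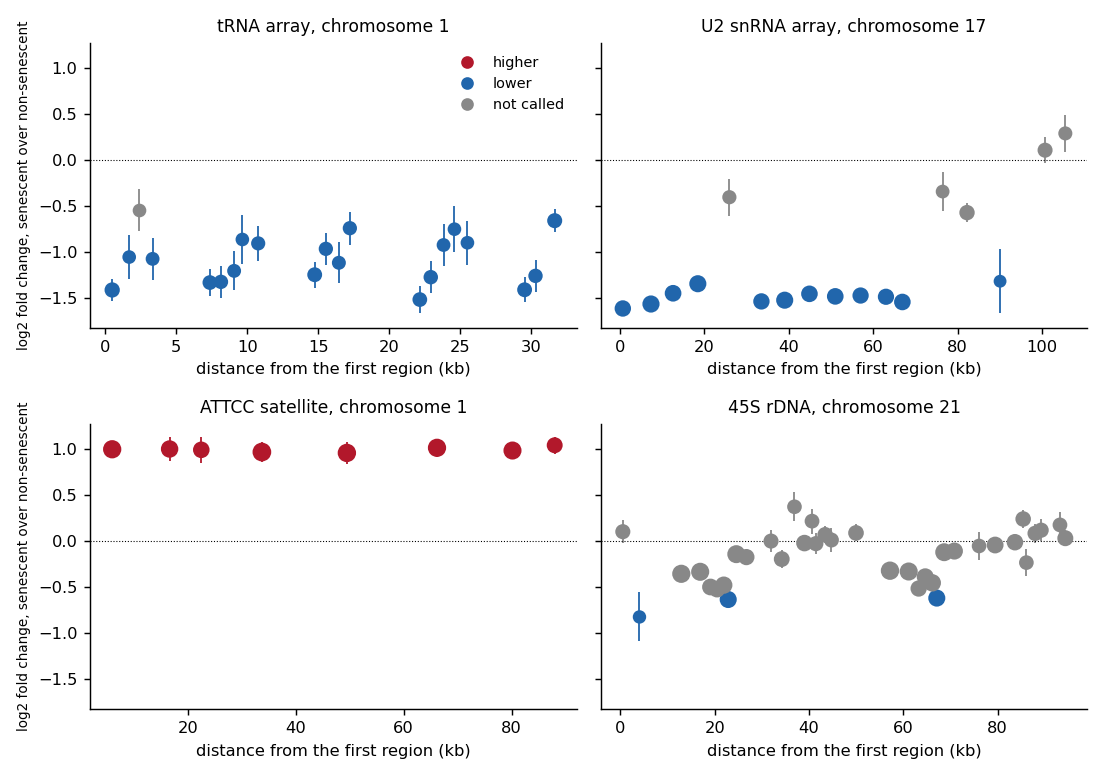
Log2 fold change with its SE (vertical axis, senescent over non-senescent) of each region by distance from the first region in kb (horizontal axis), in the tRNA array, the U2 array, the chromosome 1 ATTCC satellite and the larger 45S run. Point size grows with the log of the mean signal, and red, blue and grey mark higher, lower and uncalled regions. The 11 U2 regions lie together near -1.5, the 8 satellite regions lie together near 1.0, and the 45S regions lie between -0.82 and 0.38.

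The 290 single-copy runs lay on all 22 autosomes and had 8 to 28 regions each, over a median of 51.3 kb, of which the regions covered 11.3%. In 113 runs every region lay inside a single gene body, and 56.6% of the regions were intronic, 4.75% exonic and 38.6% intergenic, against 45.8%, 4.78% and 49.5% of other single-copy distal regions. The regions were stronger than those (median signal 144 against 94.1), of higher GC content (50.3% against 45%) and of similar width (537 and 505 bp). Their median log2 fold change was -0.04 against 0.05. The share called higher was 20.9% at a signal of 20 to 50, 22.6% at 50 to 100 and 3.24% at 500 or more, and it was below that of other single-copy distal regions in each of the 5 signal ranges. The share called lower was above that of the others in each range except 100 to 200, where it was 13.7% against 14.9%. It was 10.7% against 8.03% in the weakest range, but 10.6% against 10.5% in the strongest. With the other distal regions weighted to the same signal and GC content, 16.01% were higher and 11.49% lower, against 14.1% and 13.3% in the runs. At the limit of the rule, groups of 7 regions, just outside it and of any sequence class, held 15.4% higher and 14.2% lower. Single-copy runs of exactly 8 held 14.4% and 12.4%.

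**Figure D3:**
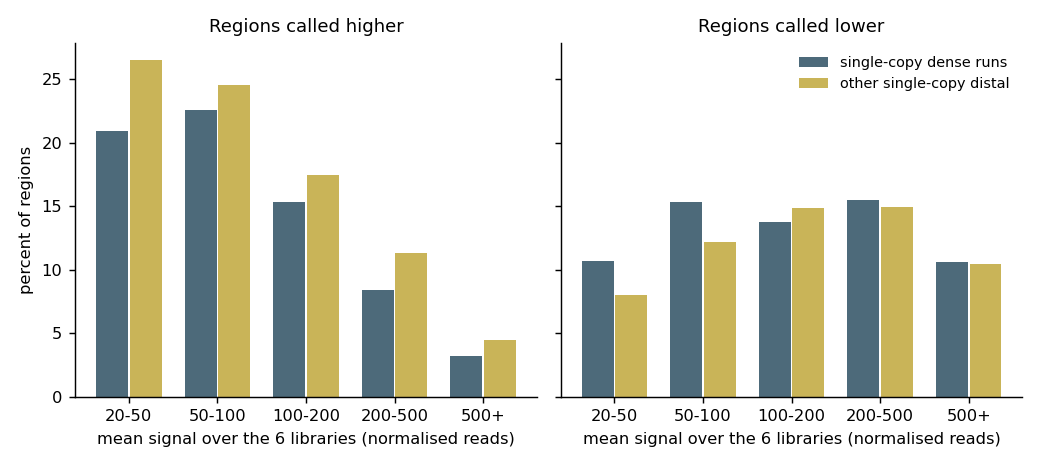
Percent of single-copy regions called higher (left) and lower (right) by mean signal in normalised reads (horizontal axis), in dense runs and in other distal regions. In the runs the share called higher is 20.9% and 22.6% in the 2 weakest ranges and falls to 3.24% in the strongest.

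Many single-copy runs held calls in both directions. Both directions were called in 124 of the 290 runs, 38 held 2 or more higher and no lower regions, 47 held 2 or more lower and no higher, 66 held 1 called region and 15 none. No run had all of its regions called higher. In 11 runs at least 50% of the regions were higher, and in 7 at least 50% were lower. Where 2 neighbours in a run were both called, 69.6% of 237 such pairs had the same sign, with 82.4% for gaps under 1 kb and 66.5% for gaps of 3 kb or more. Other single-copy distal neighbours gave 72.3% of 2640 pairs, with 82.7% and 70.0% at the same gaps. Called regions 200 to 500 kb from a region in a run shared its sign in 52.1% of 2626 pairs. Over all runs, repeats included, the share was 79.3%.

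The strongest gain of a whole run lay beside LMO2, which encodes a LIM-domain partner of transcription factors and is in the study's beta cell maturity list. The intergenic run on chromosome 11 (33906563 to 33971364) began within 15 kb of the LMO2 start site and had 9 of 10 regions higher, with a mean log2 fold change of 1.41 (mean SE 0.28). Of the 9, 4 weak regions had met the signal limit only through the senescent libraries, among them the first of the run (28.8 normalised reads, log2 fold change 2.85, SE 0.44, adjusted p 9.1e-10). The 5 others rose by 0.79 to 1.37. The strongest region, shown above, had 1359 normalised reads and rose by 1.23 (SE 0.069, adjusted p 4.1e-69). The remaining region had a value of 0.76 with an adjusted p of 0.097. The promoter region of LMO2 itself, which the rule drops, had a smaller value of 0.20 (SE 0.069, adjusted p 0.012).

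The next highest means were in runs picked by the same order. Of 2 intergenic runs whose nearest start site was DHX35, that at 39746996 to 39798589 on chromosome 20 (mean 0.91) lay 725212 bp from it and held 4 of 8 regions higher, and that at 39176562 to 39224144 (mean 0.86) held 5 of 8. The other runs of this group were a run on chromosome 18 whose nearest start site, that of CELF4, was 1922440 bp away (mean 0.74, with 4 higher and 1 lower of 9) and a run beside RFPL2 on chromosome 22 (mean 0.71, 3 of 8 higher). In the introns of BCL2L1, an anti-apoptotic BCL2 family member, 5 of 8 regions were higher and none lower, with a mean of 0.70 and a range from -0.45 to 1.87. The run around CXCL12, a chemokine of the SASP list, had 4 of 8 regions higher (mean 0.53). The BCL2L1 and CXCL12 runs were named after their values had been seen, and the others were picked by their means, so these means are a description.

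Among the largest losses over whole runs was that at FADS2. The run over FADS2, a fatty acid desaturase gene, with FADS1 and FADS3 on its flanks (chromosome 11, 61834081 to 61871585), had 6 of 9 regions lower and a mean of -0.67. There the strongest region, at the FADS1 side, stood at 0.06 (SE 0.070, adjusted p 0.53), while the 6 regions that followed fell by 0.65 to 1.39. The promoter region of FADS3 (0.08, adjusted p 0.45) was not called.

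The intergenic run nearest to PCSK1, which encodes the prohormone convertase that processes proinsulin, lay 175078 bp from its start site (chromosome 5, 96219899 to 96257315). It had 4 regions lower and 1 higher of 8 and a mean of -0.54 (mean SE 0.23). The PCSK1 promoter was lower as well (1416 normalised reads, log2 fold change -0.80, SE 0.060, adjusted p 2.0e-37). Runs in introns of CRADD (4 of 9 lower, mean -0.52) and ARHGEF10L (5 of 9 lower, mean -0.51) were also among the 5 lowest single-copy means.

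The single-copy runs with the most regions held calls in both directions. The one with the most lay in GSE1, a chromatin corepressor gene on chromosome 16 (85329286 to 85485923): of 28 intronic regions, 2 were higher and 4 lower, with a mean of -0.11. Its strongest region (3051 normalised reads) stood at -0.24 (SE 0.048), and the largest fall was in a region of 1137 normalised reads (-1.03, SE 0.070, adjusted p 6.4e-47). GSE1 held 4 dense runs with 57 regions in all, of which 5 were higher and 7 lower. In HDAC4, a class II histone deacetylase gene on chromosome 2, 4 of 17 regions were higher and 1 lower (mean 0.16). ANKRD11 (21 regions, 4 higher and 1 lower), MTSS1 (20 regions, 1 and 1), SH3PXD2A (19 regions, 3 and 4), the run shared by ZC3H18 and ZFPM1 (19 regions, 2 and 1) and the run nearest to SLC39A11 (18 regions, 2 and 2) also held calls in both directions, with means from -0.07 to 0.07.

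Islet transcription factor genes were often found at dense runs: 15 of 59 list members with a distal region had one (25.4%), against 3.0% of all 12589 genes with a distal region. Outside runs, the list was nearest to 938 single-copy distal regions, and all genes together to 67434. The shares with a run were not matched for the number of distal regions per gene. Of the 159 regions nearest to these 15 genes, 16 were higher (10.1%) and 27 lower (16.98%), with a median log2 fold change of -0.13. The 938 other single-copy distal regions of the whole list, not only of these 15 genes, gave 16.6% and 14.9% with a median of -0.03. By gene, FOXA2 and TOX3 had 3 lower and no higher regions, MEIS1 had 5 lower of 16, MNX1 2 lower of 11 and TEAD1 1 lower of 9. ISL1 had 3 of 9 regions higher, none lower and all 9 values positive (mean 0.60), and PDX1 had 1 higher and none lower. PAX6, PROX1, INSM1, LMX1A, LMX1B, RFX6 and NKX6-1 had both. The list was put together for this work, and the difference between its regions and others was not tested.

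The FOXA2 run (chromosome 20, 22449006 to 22537519), beside the gene of a pioneer factor of endoderm, held 13 strong regions with signals of 170 to 4024 normalised reads. Of these 10 had negative values, 3 were called lower, and none was higher. The falls were 0.90 (SE 0.085), 0.92 (SE 0.065) and 1.05 (SE 0.16), the last in the region nearest to the gene. The strongest region changed little (4024 normalised reads, -0.19, SE 0.042), and the second strongest fell by 0.54 (SE 0.045, adjusted p 2.2e-30), less than the limit of 1.5-fold. The FOXA2 promoter stood at -0.14 (SE 0.053).

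At INSM1, the gene of a zinc finger factor of endocrine differentiation, the run reached through the introns of RALGAPA2 (chromosome 20, 20346825 to 20498977) and held 25 regions, 3 higher and 6 lower. The higher regions lay among the lower and uncalled ones along it. The largest fall was -1.09 in a region of 501 normalised reads close to INSM1 (SE 0.098, adjusted p 7.9e-27), and the largest rise 1.35 in the weakest region (32.7 normalised reads, SE 0.36, adjusted p 0.00084). The strongest region (2938 normalised reads) stood at -0.27, and the INSM1 promoter at -0.03 (SE 0.069, adjusted p 0.74).

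PDX1 and NKX2-2, at the core of beta cell identity, had runs with almost no called region. The PDX1 run (10 regions) had 1 higher region (477 normalised reads, 0.85, SE 0.098, adjusted p 1.5e-16), and its strongest region stood at -0.24. None of the 9 regions of the NKX2-2 run was called, with values from -0.44 to 0.32 and a strongest region of 4195 normalised reads at -0.27. The NKX6-1 run (15 regions) had 4 higher and 1 lower. Its higher regions were weak, apart from 1 of 237 normalised reads (0.60, SE 0.14), and the strongest region (1192 normalised reads) stood at -0.26. In the PAX6 run, which lay partly in ELP4, 3 of 10 regions were lower and 1 was higher.

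**Figure D4:**
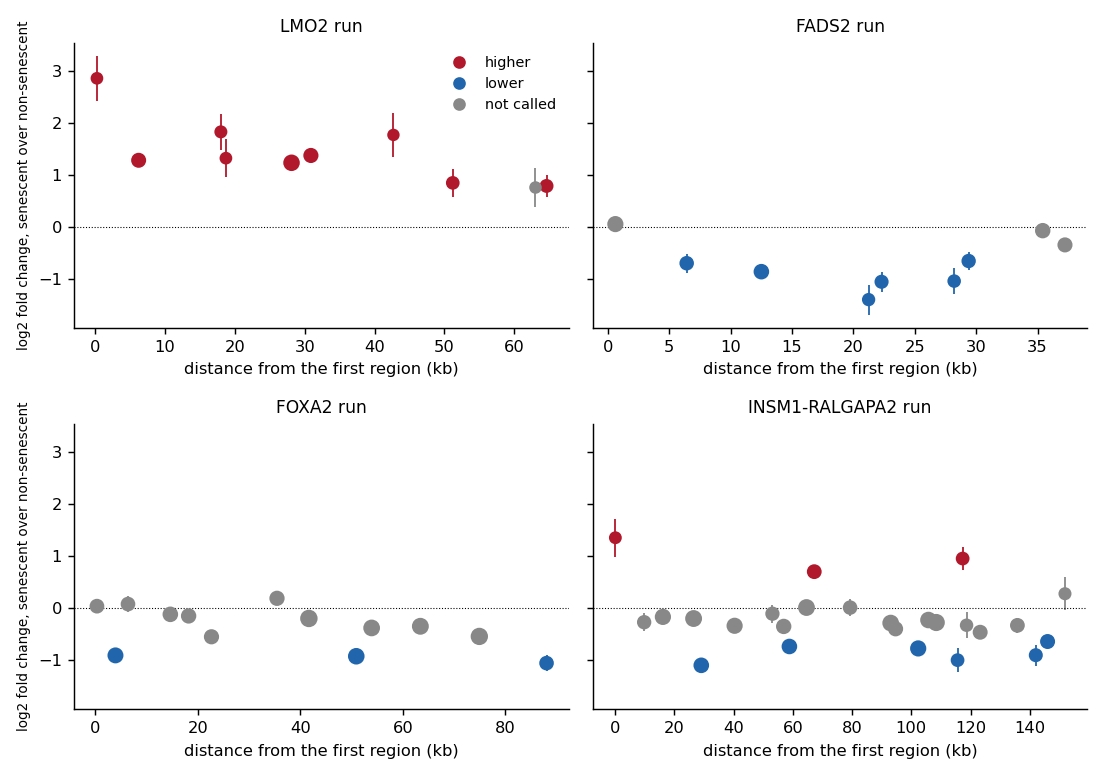
Log2 fold change with its SE (vertical axis, senescent over non-senescent) of each region by distance from the first region in kb (horizontal axis), in the LMO2, FADS2, FOXA2 and INSM1-RALGAPA2 runs. Point size grows with the log of the mean signal, and red, blue and grey mark higher, lower and uncalled regions. In the LMO2 run all 10 values lie above 0 and in the FADS2 run 8 of 9 lie below 0, while higher, lower and uncalled regions mix in the INSM1-RALGAPA2 run.

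Of the study's gene lists, beta cell maturity had regions in dense runs for 11 of 61 genes with a distal region (18.03%). Of the 105 regions of those 11 genes, 23 were higher (21.9%), 9 of them at LMO2, and 16 lower (15.2%), against 17.7% and 13.3% of the other distal regions of the list and 14.1% and 13.3% of all regions in single-copy runs. In the insulin secretion list 17 of 159 genes had regions in runs, with 18 higher and 11 lower of 141 (12.8% and 7.80%, against 18.3% and 12.3% of the list's other distal regions). The interferon-stimulated list had 9 of 236 genes, with 16 higher and 8 lower of 74 regions. These shares were 21.6% and 10.8%, against 16.1% and 13.2% of its others. LMO2 alone gave 10 of the 74 regions and 9 of the 16 higher ones. The p53 pathway had 6 of 133 genes (7 higher and 4 lower of 49 regions) and the SASP 2 of 50 (4 and 2 of 14). The cell cycle list had 1 of 57, TACC3 (1 higher of 4). Type 2 diabetes loci had 4 of 54 genes with 3 higher and 7 lower of 32 regions (9.38% and 21.9%, against 21.8% and 11.5% of their others). None of these differences was tested, and the smaller lists hold too few regions to compare. Of the cell type markers, 3 of 11 beta cell genes had regions in runs (NKX6-1, PCSK1 and PDX1, 6 higher and 5 lower of 31) and, of the acinar genes, NR5A2 alone did (4 higher of 10). No alpha, delta and PP, duct, mesenchymal, or endothelial and immune marker did. All 14 beta cell markers had a promoter region (median signal 1028), and so had all 13 alpha, delta and PP markers (median signal 306). Promoter regions were also found for 9 of 10 duct and 7 of 12 acinar markers. By contrast, 8 of 12 endothelial and immune and 4 of 12 mesenchymal markers had none.

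The promoters that the rule had dropped moved little with their runs. For 276 single-copy runs the nearest gene had a promoter region, and 14 of these were lower (5.07%) and 1 was higher, against 9.04% and 3.48% of 19064 autosomal promoter regions. Beside the 37 runs with 2 or more higher and no lower regions, no promoter was called and 30 had negative values. Beside the 42 runs with 2 or more lower and no higher, 2 promoters were lower and 31 had negative values. Negative values were also the more common over all 276 (184 of them). Pearson's r between the mean of a run and the value of its promoter was 0.02 over the 276 runs, some of which share a gene, and all values come from the same libraries.

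Motifs were sought on both strands in the central 300 bases of single-copy regions. The E-box CAGATGG was found in 30.1% of the 392 lower regions in dense runs, 14.7% of the regions not called and 9.16% of the 415 higher regions. Other single-copy distal regions had the same order, with 26.0%, 14.9% and 8.38%. Its letters read backwards were in 0.72%, 1.26% and 0.77% of higher, uncalled and lower regions in runs. TGCTGAC, bound by MAF factors such as MAFA, had the opposite order, with 10.4% of higher, 7.19% of uncalled and 5.61% of lower regions in runs, and 12.4%, 6.98% and 4.89% outside. When reversed, the MAF letters were in 1.69% of higher and 0.255% of lower regions in runs, and in 0.692% and 0.724% outside. The FOXA letters TGTTTAC were in 9.95% of lower and 6.99% of higher regions in runs, and in 13% and 9.26% outside. Read backwards, they were in 5.87% and 7.95% in runs and in 8.67% and 9.07% outside. The AP-1 letters TGAGTCA were in 7.47% of higher and 5.87% of lower regions in runs, and in 10.1% and 5.81% outside. When reversed, the AP-1 letters were in 5.54% and 2.55% in runs and in 6.45% and 4.8% outside, the same order. The core of the CTCF motif was in 1.73% of all regions in single-copy runs and 3.11% of the others. The RFX motif GTTNCCATG was in 1.69% of higher and 2.04% of lower regions of the runs, which is only 7 and 8 regions. Outside, the RFX order was the opposite, with 2.74% of higher and 1.73% of lower regions. For the HNF1 motif GTTAATNAT the shares of higher and lower regions were 0.96% and 1.79% in runs, and 2.5% and 2.86% outside. The GATA letters AGATAAG were in 4.82% and 6.63% in runs, and in 5.45% and 7.71% outside. The homeodomain letters TAATTA were in 12.3% and 8.67% in runs, close to the 12.0% and 8.93% found when they were read backwards. Outside, the homeodomain order was the opposite, with 11.9% of higher and 13% of lower regions. A match is a description of the letters and not a bound site, and the called regions differ from the others in signal and GC content, whose part in these shares was not tested.

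**Figure D5:**
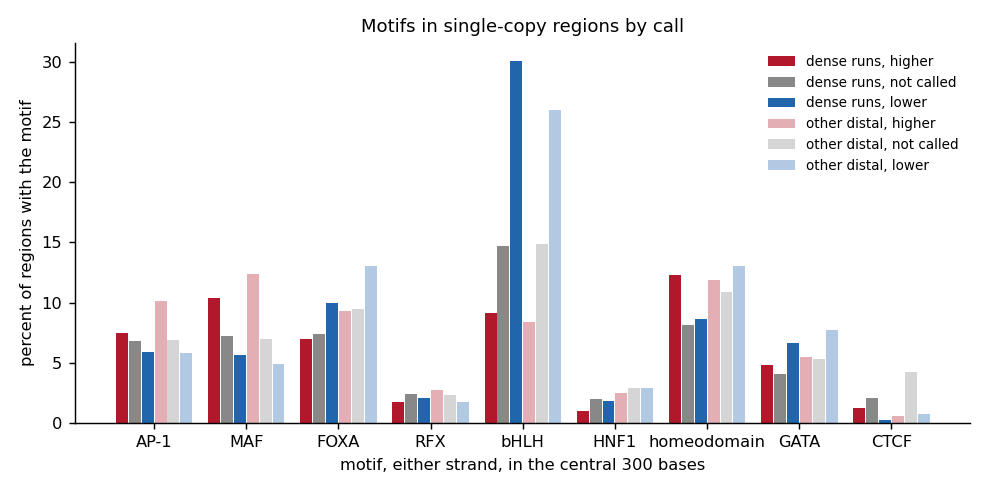
Percent of single-copy regions with each motif (vertical axis) by motif (horizontal axis), for higher, uncalled and lower regions in dense runs (full colour) and in other distal regions (pale). The E-box, labelled bHLH, is in 30.1% of lower and 9.16% of higher regions in runs.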

How the data were processed

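ATAC-seq libraries were prepared from 100000 cells each, in 3 non-senescent and 3 senescent samples. According to the study's methods, reads were trimmed with Trim Galore and cutadapt, aligned to hg38 with Bowtie2, cleared of mitochondrial reads and duplicates and shifted for the Tn5 cut, peaks were called with MACS2, and the authors tested reads in their union with DESeq2. A filter on mapping quality is not given in the sources used here. Per region, the authors deposited a mean signal (normalised reads over all libraries), a log2 fold change with its log2 SE, a Wald statistic (a score) and a p-value with its Benjamini-Hochberg adjustment. The Wald statistic, p-value and adjustment were recomputed from the other columns and matched. The table holds no depth per library, and the study's methods give only a range over samples, so the SEs carry the precision. Its starts were read as 0-based and are printed 1-based.

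Computed here with Python 3.11.15 (pandas 2.3.3, NumPy 2.4.6, SciPy 1.17.1, numba 0.67.0, pysam 0.24.0) were the runs, GENCODE 44 genes (the nearest protein-coding start site and the host gene), RefSeq small RNA genes, sequence classes and motifs. The joining and calling code was tested on simulated data. For a run, the mean log2 fold change is given with the mean SE of its regions, an upper bound on the SE of that mean. Runs were named by number of regions (8), highest and lowest mean (5 each), summed signal (4) and islet transcription factors (10), first over all runs and, after the data had been seen, again over single-copy runs. Of the runs this names, 1 is not reported here. Counts under other thresholds and rules were compared. The members and lists were chosen with earlier results of these data known.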

Additional observations from a re-analysis of the deposited data

How the results depend on the processing

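The number of runs depends on the rule that makes them. With gaps under 5 kb there were 357 regions in 31 runs, 101 higher and 32 lower regions, 11 runs with 2 or more higher and no lower regions, 2 with the reverse and 3 with both. With gaps under 20 kb there were 11170 regions in 963 runs, 1741 higher and 1350 lower regions, 182 runs with 2 or more higher and no lower regions, 118 with the reverse and 480 with both. With a mean signal of 50 or more there were 1492 regions in 144 runs, 201 higher and 214 lower regions, 21 runs with 2 or more higher and no lower regions, 32 with the reverse and 46 with both. With runs of 10 or more regions there were 2457 regions in 167 runs, 339 higher and 247 lower regions, 32 runs with 2 or more higher and no lower regions, 24 with the reverse and 73 with both. With start sites of all genes in place of protein-coding ones there were 2443 regions in 209 runs, 413 higher and 234 lower regions, 47 runs with 2 or more higher and no lower regions, 23 with the reverse and 82 with both. A Wald test of a fold over 1.5 left 160 higher and 119 lower regions, 30 runs with 2 or more higher and no lower, 16 with the reverse and 13 with both. Without a fold limit 835 regions were higher and 919 lower, and 229 runs held both. In single-copy runs alone, a setting chosen after seeing the data, 38 runs held 2 or more higher and no lower regions. The cause was not tested, beyond the fewer or more regions that each rule admits. The remaining 51 of 92 values stayed within 1.5 times the main value, among them every same-sign share of called neighbours (69.6% to 96%). Centring on the median of all regions moved log2 fold changes by 0.01. The order of higher and lower regions turned at a mean signal of 50 or more and without a fold limit (both above), and when a trend on GC content was taken out (467 and 499). No paired analysis was possible because only means and contrasts over all libraries are held for each region, and for the same reason no replicate block was fitted and no library was left out.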
